A study of Mus musculus with 30 samples.

Results

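The comparison described here is how the response to an activin trap differed between kidney and skeletal muscle of the same Kif3a mutant mice. It rests on 16 of the 30 arrays of the study, namely all arrays labelled Kif3aΔTub, chosen by genotype, tissue and treatment. The groups were kidney of Kif3aΔTub mice given sActRIIB-Fc (n = 4), kidney of Kif3aΔTub mice given PBS (n = 4), muscle of Kif3aΔTub mice given sActRIIB-Fc (n = 4) and muscle of Kif3aΔTub mice given PBS (n = 4). The animal number in each title ties a kidney to the muscle of the same mouse, so that 8 mice gave all 16 arrays. sActRIIB-Fc was injected into the peritoneum at 10 mg/kg once a week, with 2 injections up to an age of 6 weeks. Treated and PBS mice alike carried the mutation, which the labels also call Kif3aKSPCre, after the KSP promoter that drives Cre recombinase in kidney tubule epithelium and not in muscle fibres. The muscle that was sampled and the sex of the mice are not given in the sources used here. Wild-type mice (4 given sActRIIB-Fc and 3 given PBS, 14 arrays in all) are used only for values set beside those of the mutants.

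Kif3a encodes a subunit of kinesin-2, the motor that carries cargo into the primary cilium, and its loss from tubule cells is a standard way to produce cystic kidneys in mice. Activins are dimers of the inhibin beta subunits. They bind the type II receptors ACVR2A and ACVR2B, which recruit type I receptors such as ACVR1B and pass the signal to SMAD2 and SMAD3. sActRIIB-Fc is the ligand-binding part of ACVR2B joined to an antibody Fc piece, and is called the trap below: it binds activins and related ligands in the circulation before they reach a cell. In muscle such ligands restrain growth, and in injured kidney activin A is made by tubule and stromal cells and is known for its part in fibrosis.

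Each trap effect below is the mean of the trap arrays minus the mean of the PBS arrays on the log2 scale, with its standard error (SE), and a kidney minus muscle difference is the effect in kidney minus the effect in muscle. All 3 were tested in 1 limma model over 17782 genes, and a gene is called where its p-value, adjusted over all these genes, is under 0.05. The gene lists used below were chosen with earlier results of these data known. A share of all genes set beside a list's count is therefore no test of that list. Muscle arrays read Acta1, Ckm, Myh4, Tnnt3 and Atp2a1 at 14.06 or above, against 6.22 or below on kidney arrays. Kidney arrays read Umod, Slc12a1, Lrp2, Cubn and Aqp2 well above every muscle array, while the podocyte gene Nphs1 did not separate the tissues (5.07 to 5.62 in kidney, 5.14 to 5.52 in muscle). Kif3a itself read 7.37, 7.74, 7.39 and 8.0 in trap kidneys, against 7.25, 7.39, 7.22 and 7.48 in PBS kidneys. Wild-type kidneys read 7.34 to 7.84 with the trap and 7.76 to 7.89 with PBS, so that Kif3a in PBS kidneys was lower in every mutant than in any wild type, while the trap groups overlapped. Cells outside the tubule keep the gene, and whether the Kif3a probe set lies in the deleted part was not tested. A change in a bulk sample can come from fewer cells of a type or from less RNA per cell, which cannot be told apart here.

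Of the control signals, that of 18S ribosomal RNA moved with the treatment in kidney, while that of beta-actin overlapped between the groups there. The 18S ribosomal RNA signal was 10.8, 10.6, 11.3 and 10.3 in trap kidneys, against 12.2, 12.6, 11.8 and 11.9 in PBS kidneys, with no overlap. In muscle it was 12.64, 12.46, 12.17 and 11.95 with the trap, against 11.76, 12.13, 11.80 and 11.16 with PBS, so that the groups overlapped and the means lay the other way round. The signal of beta-actin at the 3′ end minus that at the 5′ end, a measure of RNA integrity, ranged from 0.61 to 1.64 in trap kidneys and from 0.76 to 1.37 in PBS kidneys. It was far smaller in muscle, at 0.09 to 0.20 with the trap and at -0.06 to 0.14 with PBS. With the 18S signal as a term for each tissue, added after the data were seen, none of the tissue differences passed the test (1202 genes had an unadjusted p under 0.05). The median size of the 505 differences called without it was then 0.92, against 0.94 without that term, and their median SE was 0.38, against 0.20.

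**Figure D1:**
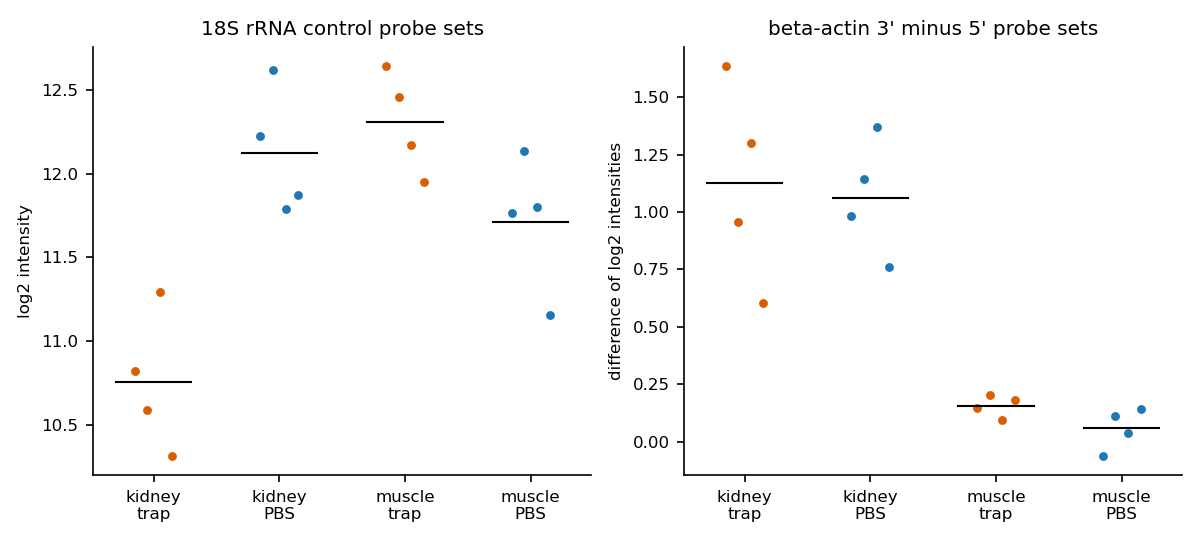
Control signals by array in Kif3aΔTub mice, with the 18S ribosomal RNA probe sets on the left (log2 intensity) and beta-actin 3′ minus 5′ on the right (difference of log2 intensities). Each point is 1 array, orange for the trap and blue for PBS, and the bar is the group mean. The 18S points of trap kidneys (10.3 to 11.3) all lie below those of PBS kidneys (11.8 to 12.6).

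More genes were called in muscle than in kidney in this fit, an order that turned with the beta-actin term (302 in kidney and 70 in muscle). The counts were nearly level with array weights (573 and 624) and with each tissue fitted apart (224 and 263). With both tissues in 1 fit, 730 genes were higher in muscle (4.11% of genes tested) and 412 lower (2.32%). In kidney 168 were higher (0.945%) and 135 lower (0.759%). Genes called in both tissues numbered 22, which is 7.26% of the kidney calls and 1.93% of the muscle calls. Of these, 14 were higher in both (0.0787% of all genes), 3 were lower in both (0.0169%), 4 were lower in kidney and higher in muscle (0.0225%) and 1 was higher in kidney and lower in muscle (0.00562%). The effects themselves differed between kidney and muscle for 505 genes, with 162 positive differences (0.911%) and 343 negative ones (1.93%). By the larger of the 2 adjusted p-values, Ldhd (0.046) and Mest (0.0477) lay just inside the threshold for both tissues, and Trnp1 (0.052) and 4930523C07Rik (0.0527) just outside it. Median effects over all genes were -0.01 in kidney, 0.03 in muscle and -0.03 for the difference.

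These counts moved with the samples and with the model. When each tissue was fitted apart, only Vsig4 and Sap30 were called alike and no gene was called in opposite directions. The fit of both tissues together shares 1 estimate of spread between them, and the median spread within groups was 0.16 in kidney and 0.19 in muscle. Leaving out 1 mouse at a time gave 3 to 69 genes moved alike and 0 to 16 moved in opposite directions. The 69 and 16 came without PBS replicate 2. There were 3 alike without trap replicate 2, trap replicate 4 or PBS replicate 4, and 0 opposite without PBS replicate 1 or 4. Centring every array on its own median gave 17 genes moved alike, 9 higher and 8 lower, of which 11 were among the 17 called as deposited. Quantile normalization gave 11 higher and 7 lower, with 13 of the 17 among them. The same 2 scalings put the share of positive calls among tissue differences at 42.1% and 38.7%, against 32.1% as deposited, and the share of higher calls in muscle at 42.9% and 51.1%, against 63.9%. The median of all genes in muscle was -0.05 and -0.02 under these scalings, against 0.03 as deposited.

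**Figure D2:**
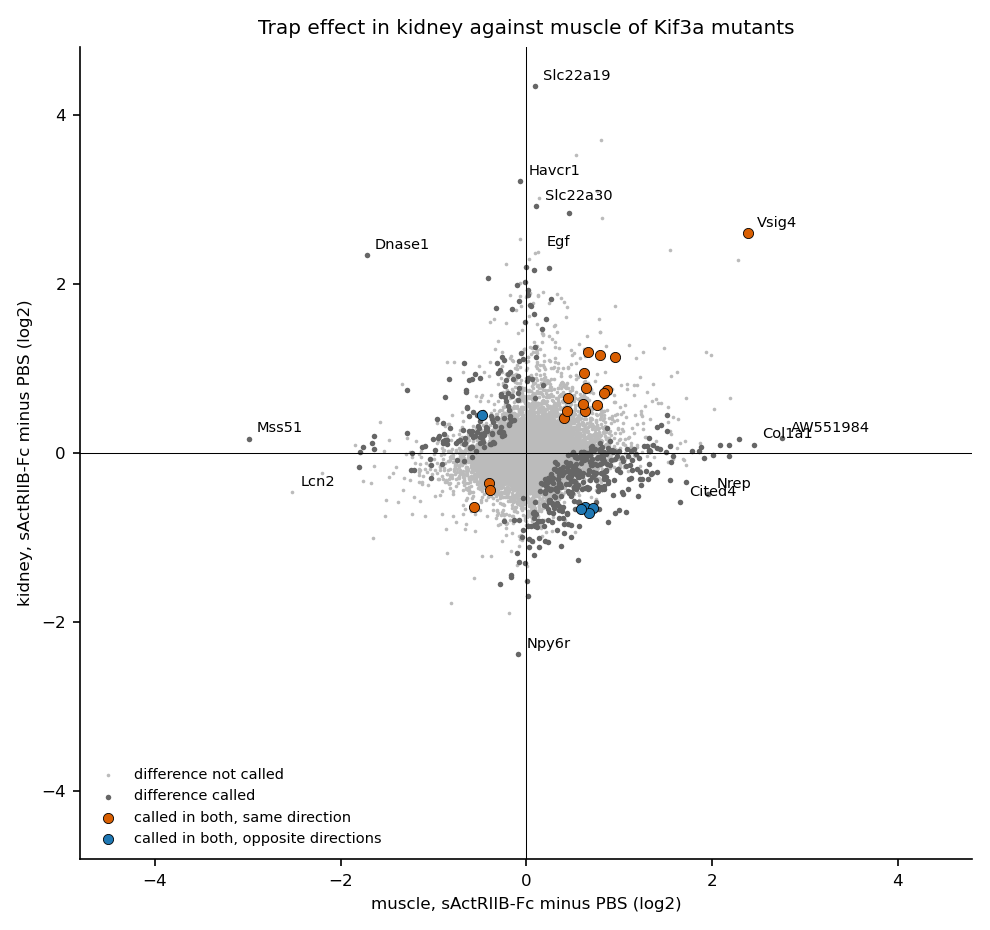
Trap effect in muscle (x axis) against trap effect in kidney (y axis) of Kif3aΔTub mice, both as sActRIIB-Fc minus PBS in log2 units, with 1 point per gene. Orange marks the 17 genes called in both tissues in the same direction, blue the 5 called in opposite directions, and dark grey the genes whose kidney minus muscle difference was called. Vsig4 lies alone at 2.60 in kidney and 2.39 in muscle.

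Vsig4, a complement receptor of the immunoglobulin superfamily carried by tissue-resident macrophages, had the largest change among the genes moved alike. Its promoter window is shown because it is the gene that rose most in both tissues, and that of Frk because Frk was called in opposite directions. Both are RefSeq windows of GRCm38.p6, around the annotated transcription start, on chrX:96293389-96293688 (minus strand) for Vsig4 and chr10:34483150-34483449 (plus strand) for Frk. Capitals mark CAGAC, the core bound by SMAD proteins, and GGAAGT, a core bound by ETS factors such as the macrophage factor PU.1, each on either strand.
Vsig4: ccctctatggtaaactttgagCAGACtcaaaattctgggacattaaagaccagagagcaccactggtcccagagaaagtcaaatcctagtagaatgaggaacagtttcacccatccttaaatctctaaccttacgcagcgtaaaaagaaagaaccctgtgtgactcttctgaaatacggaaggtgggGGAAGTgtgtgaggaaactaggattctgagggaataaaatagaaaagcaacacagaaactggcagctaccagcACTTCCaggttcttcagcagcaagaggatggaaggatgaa
Frk: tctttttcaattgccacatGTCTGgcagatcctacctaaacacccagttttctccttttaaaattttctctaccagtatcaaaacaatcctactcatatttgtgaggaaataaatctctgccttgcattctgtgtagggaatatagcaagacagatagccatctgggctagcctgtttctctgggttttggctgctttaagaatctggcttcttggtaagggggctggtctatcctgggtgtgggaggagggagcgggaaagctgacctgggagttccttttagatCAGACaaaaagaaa
The Vsig4 window held CAGAC once and GGAAGT in 2 places, and the Frk window held CAGAC in 2 places and no GGAAGT. RefSeq windows were found for 17 of the 22 genes called in both tissues. CAGAC was in 8 of these 17 and in 49.6% of all 32851 windows, and GGAAGT in 7 of 17 and in 23.8% of all windows. A match is a string of letters, not a known binding site.

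Vsig4 read 7.78, 7.68, 6.64 and 7.63 in trap kidneys, against 4.87, 4.88, 4.85 and 4.73 in PBS kidneys. In muscle it read 7.04, 7.97, 7.33 and 7.37 with the trap, against 4.84, 5.34, 4.76 and 5.20 with PBS. Trap and PBS arrays lay far apart in each tissue, and both tissues ended near the same level. The effect was 2.60 ± 0.23 in kidney (6.07-fold, adjusted p = 1.06e-05) and 2.39 ± 0.23 in muscle (5.24-fold, adjusted p = 7.21e-05). The kidney minus muscle difference was 0.21 (95% interval -0.44 to 0.87, adjusted p = 0.797). The muscle call held in all 20 alternatives in which Vsig4 was measured and the kidney call in 19 of them. With the 18S term the kidney effect was 1.90 (adjusted p = 0.357). In wild-type mice Vsig4 changed by 1.17 in kidney (adjusted p = 0.011) and by 2.70 in muscle (adjusted p = 1.43e-07), so that it was called higher in both tissues of both genotypes.

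Among 24 macrophage and myeloid markers, 1 was called higher in kidney, Vsig4 (0.945% of all genes were), and 2 in muscle (4.11% of all genes), Vsig4 and the complement subunit gene C1qa (0.74 ± 0.21, adjusted p = 0.0491). The median effect of the list was 0.01 in kidney and 0.58 in muscle, and the muscle count was 11 without PBS replicate 4. Csf1r, the receptor for the macrophage growth factor CSF1, changed by 0.23 in kidney and 0.56 in muscle, neither called. Cd163, a scavenger receptor of resident macrophages, read 7.67, 6.97, 7.09 and 7.92 in trap kidneys, against 8.25, 7.93, 8.75 and 8.15 in PBS kidneys. In muscle Cd163 read 7.35, 8.07, 7.71 and 7.48 with the trap, against 7.05, 6.65, 7.13 and 7.50 with PBS. Its effects of -0.86 in kidney and 0.57 in muscle were not called alone, and their difference of -1.43 ± 0.32 was called (adjusted p = 0.027). Adgre4, an adhesion receptor of macrophages, was called higher in both tissues at 1.20 ± 0.18 in kidney and 0.67 ± 0.18 in muscle (adjusted p = 0.00307 and 0.0411). Its level was low, at 5.03 to 5.62 in trap kidneys against 3.80 to 4.64 in PBS kidneys, and its other probe set gave 0.44 in kidney and 0.15 in muscle. Itgal, the alpha chain of the leukocyte integrin LFA-1, changed by 1.13 ± 0.26 in kidney and 0.95 ± 0.26 in muscle (adjusted p = 0.0347 and 0.0366). Its other, dimmer probe set gave 0.13 in kidney and -0.06 in muscle, and with the mean of both the effects were 0.63 and 0.45 and the muscle call was lost.

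Of 23 interferon-induced genes measured, 4 were higher in kidney (Cxcl10, Irf7, Gbp3 and Bst2) and 4 in muscle (Iigp1, Cxcl9, Gbp3 and Rsad2), none lower, against 0.945% and 4.11% of all genes called higher, with medians of 0.47 in kidney and 0.34 in muscle. No interferon gene had a called tissue difference. Gbp3, a guanylate-binding GTPase, read 8.66, 8.78, 8.53 and 8.53 in trap kidneys, against 8.31, 7.95, 7.52 and 7.85 in PBS kidneys. In muscle Gbp3 read 7.0, 6.88, 6.47 and 6.45 with the trap, against 5.67, 6.16, 5.74 and 5.90 with PBS. The groups did not overlap in either tissue, with effects of 0.71 ± 0.16 and 0.83 ± 0.16 (adjusted p = 0.0367 and 0.00774). Without trap replicate 1, 2 or 3, or PBS replicate 3 or 4, the kidney count of this list fell to 1, and without trap replicate 2 or PBS replicate 4 its muscle count fell to 2. The chemokine gene Cxcl10 changed by 1.08 ± 0.19 in kidney and 0.12 ± 0.19 in muscle (adjusted p = 0.00838 and 0.787). The interferon-induced GTPase gene Iigp1 changed by 0.55 ± 0.25 in kidney and 1.52 ± 0.25 in muscle (adjusted p = 0.383 and 0.00293).

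Vessel genes were also among those moved alike. Kdr, the VEGF receptor of endothelium, changed by 0.50 ± 0.11 in kidney and 0.44 ± 0.11 in muscle (adjusted p = 0.0302 and 0.0253), and Icam2, an adhesion molecule of endothelium and leukocytes, by 0.65 ± 0.12 and 0.45 ± 0.12 (adjusted p = 0.0112 and 0.0361). Over 16 endothelial markers, Kdr was the 1 called in kidney, where 0.945% of all genes were higher. Muscle had 2 higher (Aplnr, 2.20, and Kdr) and 2 lower (Flt1, -0.52, and Plvap, -0.77), against 4.11% and 2.32% of all genes. These counts are not read as a change of the list. The list median was 0.29 in kidney and -0.03 in muscle. Without trap replicate 3 or 4 or PBS replicate 1 or 3 no endothelial marker was called in kidney. Flt1, another VEGF receptor, changed by 0.32 in kidney and had a called tissue difference of 0.84 ± 0.18 (adjusted p = 0.021). Pecam1 and Cdh5, which define endothelium, were not called in either tissue.

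The remaining genes higher in both tissues have varied known roles. Mest, an imprinted gene of mesoderm and growing fat tissue, read 6.88, 6.92, 6.85 and 6.80 in trap kidneys, against 5.57, 5.83, 5.81 and 5.60 in PBS kidneys. In muscle Mest read 6.81, 7.24, 5.94 and 6.55 with the trap, against 5.73, 5.77, 5.43 and 6.45 with PBS. Kidney groups were apart and muscle groups overlapped, with effects of 1.16 ± 0.23 and 0.79 ± 0.23 (adjusted p = 0.0156 and 0.0477). Over 16 adipocyte and lipid droplet genes none was called, but their mean level varied widely, from 7.80 to 9.71 in trap kidneys against 6.67 to 8.77 in PBS kidneys, and from 8.56 to 10.37 in trap muscle against 8.60 to 9.50 in PBS muscle. With the mean of Adipoq and Cidec as a further term, 3 genes were called alike, of which Vsig4 was the 1 also called without it. Paqr9, a membrane receptor of the progestin and adiponectin receptor family, changed by 0.94 ± 0.16 in kidney and 0.62 ± 0.16 in muscle. Enpep, the aminopeptidase that cleaves angiotensin II, changed by 0.75 ± 0.18 in kidney and 0.87 ± 0.18 in muscle, and Ldhd, the mitochondrial D-lactate dehydrogenase, by 0.77 ± 0.18 and 0.64 ± 0.18. The others were Phf11d, Nus1, Sap30 and Adgra3, with effects of 0.42 to 0.58 in kidney and 0.41 to 0.76 in muscle. The other probe set of Adgra3, much dimmer, gave 0.08 in kidney and -0.23 in muscle, and that of Ldhd gave 0.39 in muscle. Of these, Sap30, a subunit of the SIN3 histone deacetylase complex, was also called alike when each tissue was fitted apart.

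The 3 genes lower in both tissues changed by less than 1 log2 unit. Cdkl1, a cyclin-dependent-like kinase linked to cilia, read 9.68, 9.29, 9.55 and 9.50 in trap kidneys, against 10.22, 10.10, 10.09 and 10.17 in PBS kidneys. In muscle Cdkl1 read 4.91, 4.85, 4.91 and 5.35 with the trap, against 5.27, 5.77, 5.64 and 5.60 with PBS. Kidney groups were apart, and 1 trap muscle overlapped the PBS range at a level below that of the median gene. The effects were -0.64 ± 0.13 and -0.56 ± 0.13 (adjusted p = 0.0173 and 0.0165). The other Cdkl1 probe set gave -0.26 in kidney and 0.01 in muscle, and with the mean of both the muscle effect was -0.28 and was not called. Pik3c3, the class III phosphoinositide kinase that starts autophagosome formation, fell by 0.35 ± 0.08 in kidney and by 0.40 ± 0.08 in muscle (adjusted p = 0.0258 and 0.00617), with no overlap in either tissue. The zinc-finger gene Zfp775 fell by 0.44 ± 0.09 and by 0.39 ± 0.09 (adjusted p = 0.0190 and 0.0161).

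Of the genes called in opposite directions, 4 fell in kidney and rose in muscle. Dbndd2, a binding protein of casein kinase 1, read 10.53, 10.09, 10.38 and 10.21 in trap kidneys, against 11.11, 10.90, 10.83 and 11.18 in PBS kidneys. In muscle Dbndd2 read 9.68, 9.06, 9.43 and 9.24 with the trap, against 8.44, 9.07, 8.70 and 8.48 with PBS. Kidney groups were apart and muscle groups touched at 9.06 and 9.07. The difference was -1.38 ± 0.21 (adjusted p = 0.0036), from -0.70 in kidney and 0.68 in muscle.

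Celsr2, a cadherin of the planar cell polarity system, read 8.74, 8.32, 9.15 and 8.87 in trap kidneys, against 9.42, 9.23, 9.48 and 9.57 in PBS kidneys. In muscle Celsr2 read 6.71, 6.42, 6.57 and 6.41 with the trap, against 5.73, 5.97, 5.68 and 5.86 with PBS. Neither tissue overlapped, and the difference was -1.37 ± 0.19 (adjusted p = 0.0027), from -0.65 and 0.72. Frk, a Src-related kinase of epithelia, read 8.61, 8.82, 9.21 and 9.13 in trap kidneys, against 9.78, 9.54, 9.61 and 9.50 in PBS kidneys. In muscle Frk read 4.33, 4.57, 4.54 and 4.14 with the trap, against 3.80, 3.99, 3.67 and 3.76 with PBS, which is near the bottom of the scale. The difference was -1.25 ± 0.18 (adjusted p = 0.0031), from -0.67 and 0.59. Other probe sets of these genes gave less in muscle: 0.13 for the other Celsr2 probe set and -0.01 to 0.10 for the other 3 of Frk. The other 3 of Dbndd2, with lower levels, gave -0.05 to 0.04.

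Blnk, the adaptor of B-cell receptor signalling, fell by 0.63 in kidney and rose by 0.64 in muscle, with a difference of -1.27 ± 0.19 (adjusted p = 0.0036). It read 9.78 to 10.33 in trap kidneys against 10.35 to 11.05 in PBS kidneys, and 6.44 to 6.57 in trap muscle against 5.63 to 6.01 in PBS muscle. Ifrd2, an interferon-related regulator that binds idle ribosomes, was the 1 gene called higher in kidney and lower in muscle. It read 7.62, 7.87, 7.83 and 7.94 in trap kidneys, against 7.12, 7.51, 7.49 and 7.35 in PBS kidneys. In muscle Ifrd2 read 9.21, 8.99, 8.99 and 9.04 with the trap, against 9.62, 9.43, 9.45 and 9.63 with PBS. Neither tissue overlapped, and the difference was 0.92 ± 0.14 (adjusted p = 0.0040), from 0.45 and -0.47. With every array centred on its median, Ifrd2 was no longer called in both tissues.

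The difference of all 5 genes kept its sign in each alternative. It passed the test in 18 to 20 of the 20 or 21 alternatives per gene. It failed with the 18S term for all 5 and with the adipocyte term for Frk. The genes were chosen for 2 called effects of opposite sign, which favours a called difference, so this is no separate support. The calls in opposite directions were less stable than the difference. With the mean of all probe sets, only Blnk and Ifrd2 of the 5 kept them. None of the 5 kept them with each tissue fitted apart, or without PBS replicate 1 or 4. With 1 gene called in the pattern of higher in kidney and lower in muscle, the genes with the largest opposite effects at an unadjusted p under 0.05 in both tissues were Dnase1, Plin4 and Esm1. Dnase1, the secreted endonuclease made by kidney, read 10.61, 10.47, 8.69 and 9.21 in trap kidneys, against 6.43, 7.06, 8.39 and 7.75 in PBS kidneys. In muscle Dnase1 read 5.04, 4.88, 6.05 and 5.44 with the trap, against 8.59, 6.10, 6.23 and 7.35 with PBS. The groups were apart in both tissues, with effects of 2.34 ± 0.57 in kidney (adjusted p = 0.046) and -1.72 ± 0.57 in muscle (adjusted p = 0.083). The Dnase1 difference of 4.06 ± 0.77 passed the test (adjusted p = 0.0115) and ranged from 1.81 to 4.66 over 20 alternatives, 6 of which lost the call, the one without trap replicate 2 among them. Esm1, a secreted product of endothelium, had a difference of 1.71 ± 0.39 (adjusted p = 0.028) that 10 of 20 alternatives lost, and Plin4, a lipid droplet protein, one of 1.92 ± 0.53 (adjusted p = 0.0675).

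**Figure D3:**
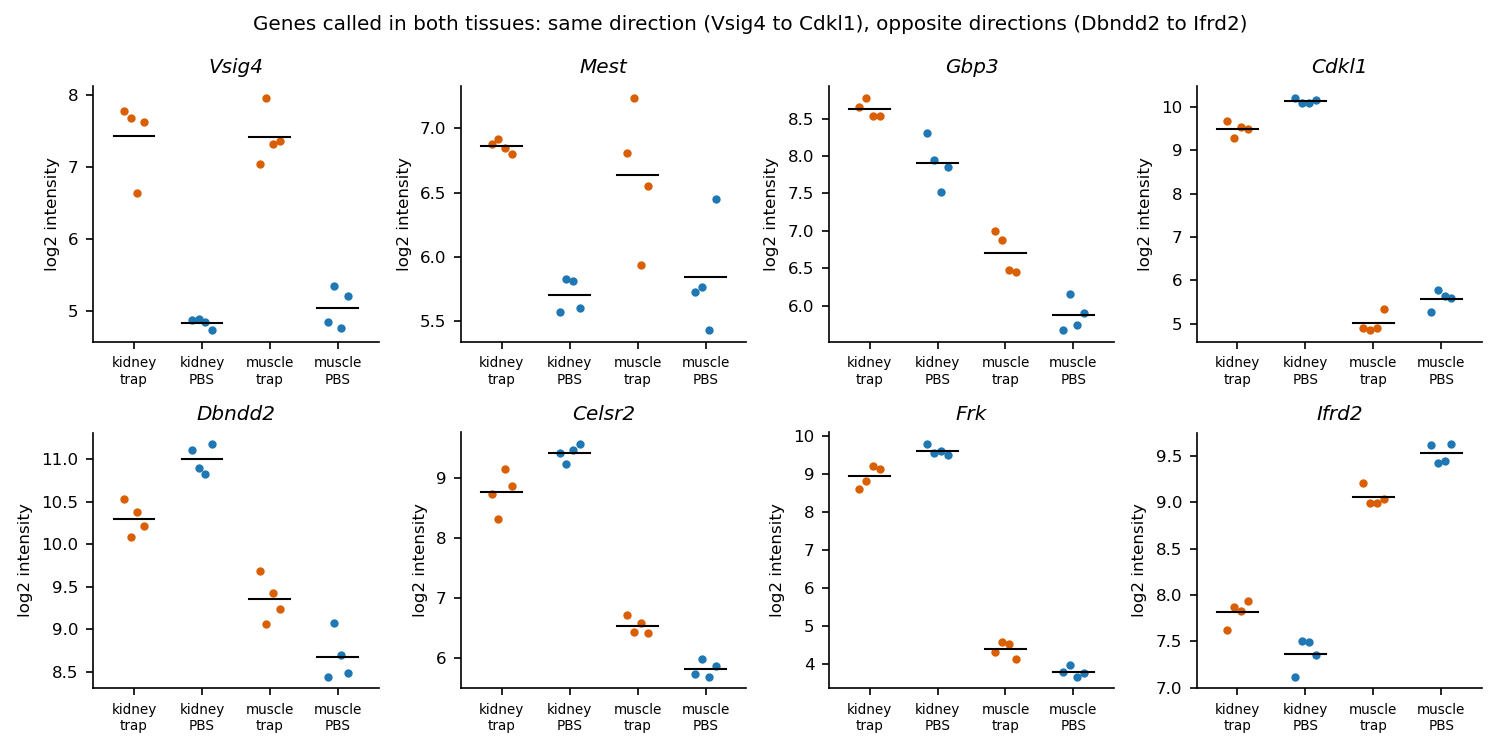
Array values of 8 genes called in both tissues of Kif3aΔTub mice, in log2 intensity, with the trap in orange left of PBS in blue for kidney and then for muscle. Points are single arrays and bars are group means. In the upper row trap and PBS differ in the same direction in both tissues, and in the lower row in opposite directions, with Ifrd2 the gene that is higher in trap kidneys and lower in trap muscle.

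Most of the 505 genes with a called tissue difference were called in 1 tissue only. Of the 343 negative differences, 208 belonged to genes called higher in muscle and not called in kidney, 63 to genes called lower in kidney and not called in muscle, 4 to genes called in both and 68 to genes called in neither. Of the 162 positive ones, 58 belonged to genes called higher in kidney alone, 74 to genes called lower in muscle alone, 1 to Ifrd2 and 29 to genes called in neither. The 2 effects had opposite signs for 281 of the 343 and for 131 of the 162, which choosing genes by a large difference favours. Only 5 genes were called in opposite directions. Trap and PBS mice did not overlap in their per-mouse kidney minus muscle value for 321 and 153 of them. The genes were called on these same values, so this is no separate support for the calls. Neither share was counted over all genes. The genes just inside the threshold were Mep1b (2.08), Mid1 (0.78) and Nipa1 (-1.25), and those just outside were Tmem158 (-0.97), Anxa1 (-0.99) and Crlf2 (-0.61).

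The 5 largest called positive differences were those of Slc22a19, Dnase1, Havcr1, Mss51 and Slc22a30. Slc22a19, an organic anion transporter of the proximal tubule, read 9.84, 9.46, 9.33 and 9.04 in trap kidneys, against 4.31, 6.24, 4.91 and 4.88 in PBS kidneys. Muscle arrays read 3.37 to 3.99 throughout, and wild-type kidneys averaged 11.99 with the trap and 11.46 with PBS. The difference was 4.24 ± 0.39 (adjusted p = 1.45e-04), from 4.33 in kidney and 0.09 in muscle. Its relative Slc22a30 had a difference of 2.81 ± 0.36 (adjusted p = 0.0011), with 7.45 to 7.89 in trap kidneys against 3.88 to 5.55 in PBS kidneys. Havcr1, the kidney injury molecule of proximal tubule cells, read 10.71, 11.48, 12.39 and 12.04 in trap kidneys, against 9.07, 8.39, 8.12 and 8.16 in PBS kidneys. The Havcr1 difference was 3.29 ± 0.46 (adjusted p = 0.0027), and Havcr1 also rose in wild-type kidney, by 1.73 (adjusted p = 0.017). These 3 differences passed the test in 19 of 20 alternatives each, failing with the 18S term.

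Mss51, a muscle mitochondrial protein known to respond to this ligand family, gave a positive difference from the muscle side. It read 5.78, 6.41, 7.68 and 6.43 in trap muscle, against 9.57, 7.74, 10.77 and 10.19 in PBS muscle, and 4.86 to 5.72 over all kidney arrays of the mutants. The Mss51 muscle effect was -2.99 ± 0.50 (adjusted p = 0.0031) and the difference 3.16 ± 0.67 (adjusted p = 0.021). The difference was lost in 9 of 20 alternatives, those without trap replicates 1, 2 or 4 and PBS replicates 1, 3 or 4 among them. In wild-type muscle Mss51 fell by 4.70 (adjusted p = 1.67e-06).

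The 5 largest called negative differences were those of AW551984, Nrep, Col1a1, Npy6r and Cited4, of which all but Npy6r rose in muscle. AW551984 read 6.51, 8.49, 5.84 and 7.75 in trap muscle, against 4.34, 4.05, 4.32 and 4.85 in PBS muscle, and 2.94 to 3.67 in kidney. Its difference was -2.58 ± 0.53 (adjusted p = 0.0188), and was lost without trap replicate 4, PBS replicate 1 or PBS replicate 3. Its other 2 probe sets gave 0.18 and 0.06 in muscle, against 2.76 for the brightest, and with the mean of all of them the difference was -0.95. Nrep, a small protein found in regenerating and fibroblast-like cells, read 10.80, 11.48, 11.11 and 11.15 in trap muscle, against 7.58, 10.48, 9.47 and 9.18 in PBS muscle, with a difference of -2.44 ± 0.52 (adjusted p = 0.0216), lost without trap replicates 2 or 4 or PBS replicates 3 or 4. Cited4, a transcriptional coactivator that binds CBP and p300, read 7.41, 7.94, 7.72 and 7.46 in trap muscle, against 5.24, 6.46, 6.06 and 6.11 in PBS muscle. In kidney Cited4 read 5.61, 5.75, 5.49 and 5.68 with the trap, against 6.06, 6.45, 5.97 and 6.38 with PBS, so that the groups were apart the other way. The Cited4 difference of -2.24 ± 0.27 (adjusted p = 6.86e-04) failed only with the 18S term among 20 alternatives. Npy6r, a neuropeptide Y receptor, differed by -2.29 ± 0.43 (adjusted p = 0.012) from the kidney side, with 4.76 to 5.34 in trap kidneys against 6.24 to 8.56 in PBS kidneys.

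**Figure D4:**
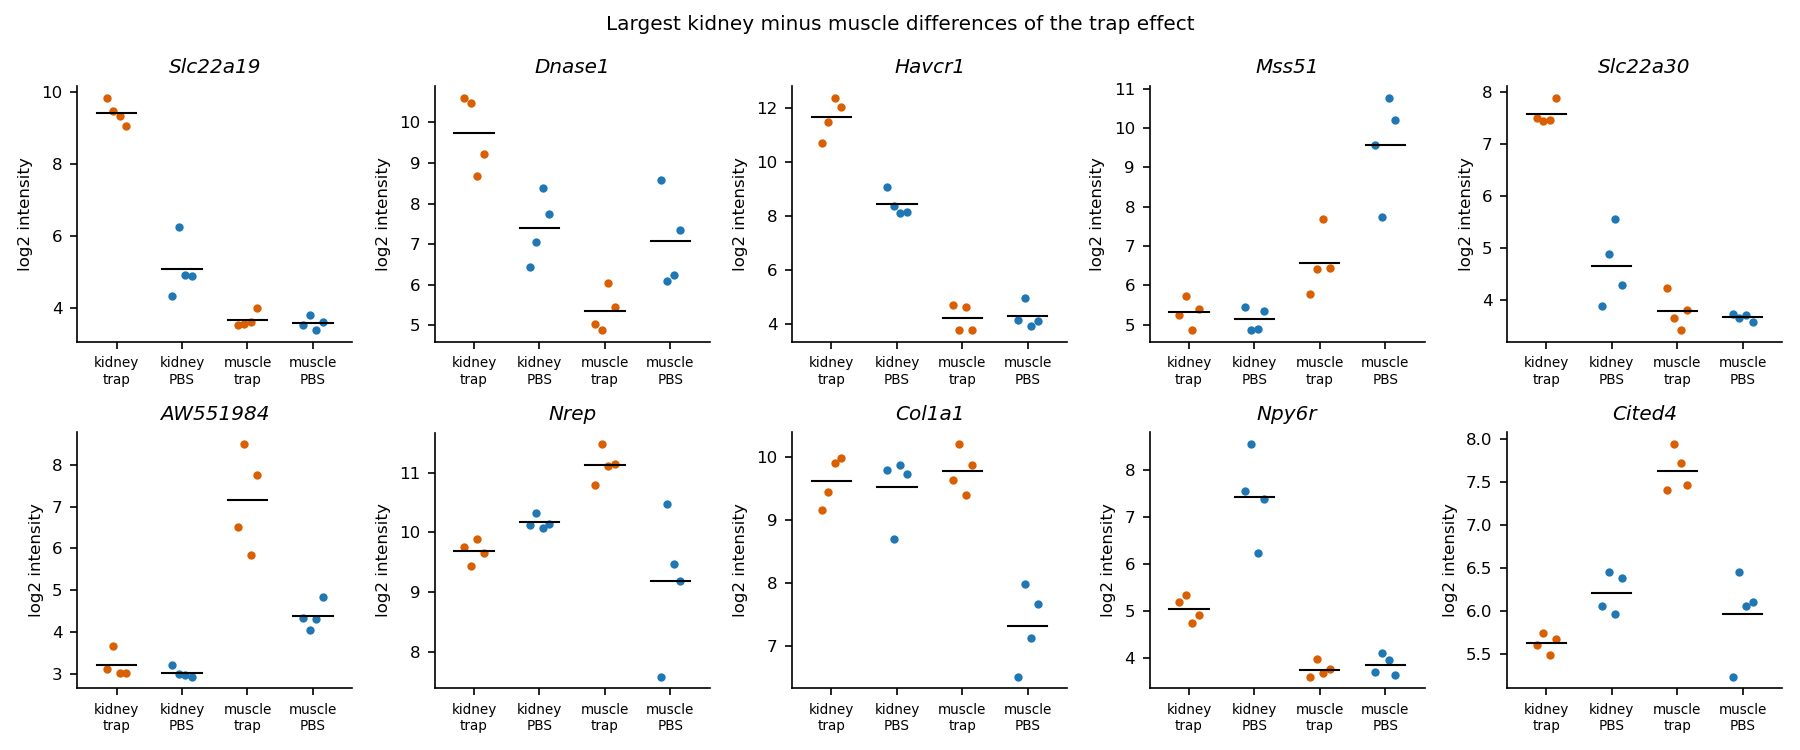
Array values of the 10 genes with the largest called kidney minus muscle differences in Kif3aΔTub mice, positive in the upper row and negative in the lower row, in log2 intensity. Points are single arrays, orange for the trap and blue for PBS, and bars are group means. In 4 of the upper panels the kidney groups differ (Mss51 is the exception), and in 4 of the lower panels the muscle groups differ (Npy6r is the exception).

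Of 28 genes for collagens and other matrix proteins, 13 were higher in muscle (4.11% of all genes were) and none lower, while in kidney none was higher and Timp2, an inhibitor of matrix metalloproteinases, was lower (-0.55 ± 0.12, adjusted p = 0.034). The tissue difference was called for 8 of them, all negative (Col1a1, Col1a2, Col3a1, Col4a1, Col6a1, Col6a2, Sparc and Timp2), against 1.93% of all genes, and the list's median effect was 0.07 in kidney and 0.83 in muscle. Col1a1, a chain of type I collagen, read 9.63, 10.20, 9.40 and 9.87 in trap muscle, against 6.52, 7.98, 7.13 and 7.67 in PBS muscle. In kidney Col1a1 read 9.16, 9.44, 9.90 and 9.98 with the trap, against 9.79, 8.70, 9.87 and 9.73 with PBS. The muscle groups were far apart and the kidney groups overlapped, which gave 2.45 ± 0.32 in muscle (adjusted p = 6.01e-04), 0.10 ± 0.32 in kidney and a difference of -2.35 ± 0.43 (adjusted p = 0.0098). Wild-type muscle averaged 10.77 with the trap and 11.25 with PBS, above both mutant groups. Of 15 fibroblast, pericyte and smooth muscle markers in the same arrays, 3 were higher in muscle (Thy1, 1.58, Dpt, 1.35, and Cd34, 0.85), against 4.11% of all genes. Myh11 of smooth muscle was lower (-0.78), against 2.32% of all genes, and the list median was 0.27. The mean level of these 15 markers was 9.35 to 9.44 in trap muscle against 8.89 to 9.47 in PBS muscle. Their part in the matrix change was not tested. Sparc, a collagen-binding glycoprotein, read 11.73 to 12.15 in trap muscle against 10.75 to 10.88 in PBS muscle, with a difference of -1.03 ± 0.15 (adjusted p = 0.0031). Igf1, the growth factor made by muscle and stroma, rose by 1.53 ± 0.26 in muscle (adjusted p = 0.0036) and changed by 0.37 ± 0.26 in kidney, with a difference of -1.16 that was not called (adjusted p = 0.092). The muscle count of the list was 11 to 15 and its difference count 3 to 9 when any 1 mouse was left out, with 3 reached without trap replicate 2 or PBS replicate 3. With the 18S, beta-actin and adipocyte terms the difference was called for 0, 1 and 0 of them, and the muscle effect for 5, 5 and 11.

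Of 26 proximal tubule markers, 5 were higher in kidney (Slc22a19, Slc22a30, Gatm, Miox and Napsa), against 0.945% of all genes, and none lower, with a list median of 0.92 in kidney and 0.10 in muscle. Their mean level was 9.85 to 10.40 in trap kidneys against 8.23 to 9.64 in PBS kidneys, with no overlap, and the kidney count was 12 without PBS replicate 2 and 3 without trap replicate 4. Gatm, the first enzyme of creatine synthesis, rose by 1.51 ± 0.26 and Miox, which breaks down inositol, by 1.87 ± 0.39 (adjusted p = 0.00668 and 0.0234), neither with a called tissue difference. Aqp1, the water channel of proximal tubule and vessels, changed by 0.55 in kidney and fell by 0.64 in muscle, with a called difference of 1.19 ± 0.23 (adjusted p = 0.013). Of 14 loop and distal tubule markers, 3 were higher in kidney (0.945% of all genes were): Slc12a3, the thiazide-sensitive cotransporter (1.47 ± 0.18, adjusted p = 4.01e-04), Egf (2.37 ± 0.54) and Ppp1r1a (0.94 ± 0.20). That count was 1 without trap replicate 1, 2 or 3 or PBS replicate 1 or 4.

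Of 19 collecting duct markers measured, 5 were lower in kidney (Foxi1, Atp6v0d2, Scnn1a, Scnn1b and Scnn1g), against 0.759% of all genes. None was higher in kidney and none was called in muscle. The tissue difference was called for 4, all negative (Foxi1, Atp6v0d2, Scnn1a and Krt7), against 1.93% of all genes. The mean level of the 19 markers was 10.03 to 10.25 in trap kidneys against 10.47 to 10.68 in PBS kidneys, again with no overlap. The kidney count was 3 without trap replicate 2, PBS replicate 1 or PBS replicate 4. The count of called differences was 1 without trap replicate 3 or PBS replicate 1, and 2 without trap replicate 2 or 4 or PBS replicate 4. Foxi1, the transcription factor of intercalated cells, read 7.75, 7.98, 7.30 and 7.32 in trap kidneys, against 8.84, 9.12, 8.83 and 8.77 in PBS kidneys, with a difference of -1.28 ± 0.26 (adjusted p = 0.0177) that was lost in 7 of 20 alternatives, those without trap replicate 3 or 4 and PBS replicate 1 or 4 among them. Atp6v0d2, a proton pump subunit of the same cells, read 8.05 to 8.34 in trap kidneys against 8.94 to 9.50 in PBS kidneys, with a difference of -1.15 ± 0.23 (adjusted p = 0.015). The 3 Scnn1 genes encode the epithelial sodium channel and fell by 1.09, 0.67 and 0.67. Aqp2, which defines principal cells, changed by -0.15 and Avpr2 by -0.06, neither called. With the 18S term the list medians in kidney were 0.84 for proximal and -0.55 for collecting duct markers, of which 1 proximal and no collecting duct gene was called.

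**Figure D5:**
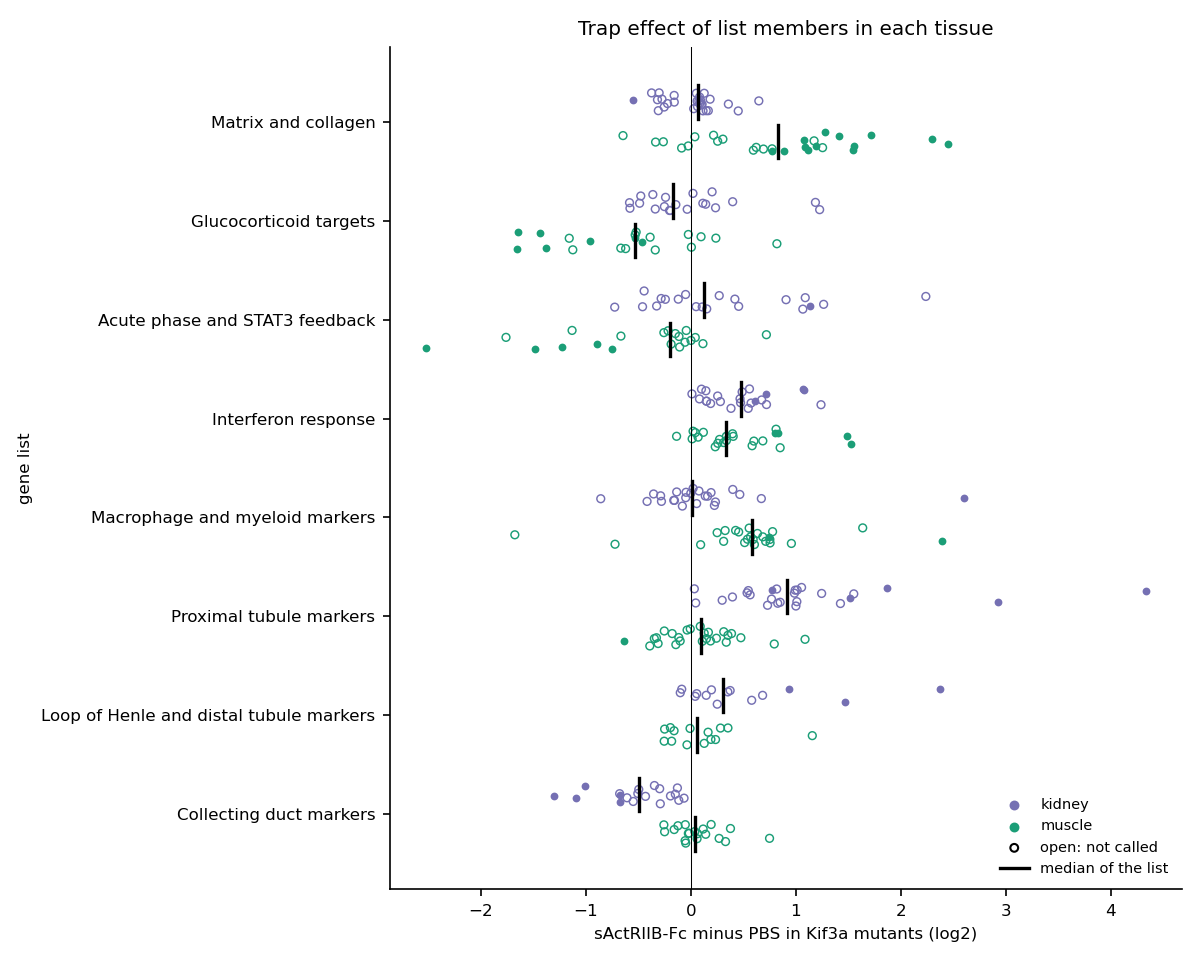
Trap effect of each measured member of 8 gene lists in kidney (purple) and muscle (green) of Kif3aΔTub mice, in log2 units. Filled points were called, open points were not, and the black bar is the median of the list. Proximal tubule markers have a median of 0.92 in kidney and collecting duct markers one of -0.49, and matrix genes have a median of 0.83 in muscle.

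Few injury markers of the tubule were called. Among 21 such genes, 1 was higher (Havcr1) and 1 lower (Il18r1, -0.86 ± 0.16) in kidney, against 0.945% and 0.759% of all genes. In muscle 2 were higher and 2 lower, against 4.11% and 2.32% of all genes. These counts are not read as a change of the list, whose median in kidney was -0.30. Lcn2, the iron-siderophore carrier made by injured distal tubule, read 12.31, 13.01, 13.18 and 13.20 in trap kidneys, against 13.75, 12.87, 13.38 and 13.54 in PBS kidneys, which overlapped. In muscle Lcn2 read 4.63, 4.78, 4.97 and 4.76 with the trap, against 10.01, 6.29, 6.06 and 6.87 with PBS, where replicate 1 stood far above the others. The muscle effect was -2.52 ± 0.58 (adjusted p = 0.018), the kidney effect -0.46 ± 0.58, and the difference of 2.06 ± 0.79 was not called (adjusted p = 0.18). Clu, the chaperone clusterin, rose by 0.90 ± 0.11 in muscle (adjusted p = 4.26e-04) and had a difference of -0.75 ± 0.15 (adjusted p = 0.016), which was lost in 8 of 21 alternatives.

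Some genes induced by glucocorticoids or in the acute-phase response were called lower in muscle. Of 20 glucocorticoid-induced genes, 7 were lower in muscle (Arrdc2, Cebpb, Cebpd, Fkbp5, Glul, Klf9 and Pik3r1), against 2.32% of all genes, and none was called in kidney, with medians of -0.53 in muscle and -0.17 in kidney. The tissue difference was called for 4, all positive (Glul, Pik3r1, Cebpd and Cebpb), against 0.911% of all genes. Pik3r1, the regulatory subunit of PI3 kinase, read 9.34, 10.19, 9.43 and 8.87 in trap muscle, against 11.66, 10.24, 11.40 and 11.09 in PBS muscle, with a difference of 1.85 ± 0.38 (adjusted p = 0.020). Cebpd, a transcription factor of the acute-phase response, read 8.52 to 9.98 in trap muscle against 10.31 to 11.97 in PBS muscle, with a difference of 1.77 ± 0.40 (adjusted p = 0.028). Glul, glutamine synthetase, changed by -0.96 ± 0.20 in muscle and 0.40 ± 0.20 in kidney, with a difference of 1.36 ± 0.27 (adjusted p = 0.016). Leaving out PBS replicate 3 or 4 left none of the 4 differences of this list called, and leaving out PBS replicate 1 or any trap replicate left 1 or 2. The muscle count was 10 without PBS replicate 2 and 4 without trap replicate 1, PBS replicate 1 or PBS replicate 4. With the beta-actin term it was 2 and the list's median difference 0.20, and with the 18S term they were 0 and 0, against 7 and 0.53 without these terms. Of 20 acute-phase and STAT3 genes, 5 fell in muscle (2.32% of all genes did; Lcn2, Il6ra, Serpina3n, Osmr and Stat3) and the fibrinogen chain Fgg rose in kidney, at 10.28 to 11.23 with the trap against 9.52 to 9.85 with PBS. Fgg and Fgb had called differences of 1.39 ± 0.33 and 1.73 ± 0.37. The muscle count of 5 fell to 0 without trap replicate 3 or 4, to 1 without trap replicate 1 or PBS replicate 3 and to 2 without PBS replicate 1 or 4. No difference of this list was called without trap replicate 3, PBS replicate 3 or PBS replicate 4, and the kidney call of Fgg was lost without trap replicate 3 or 4 or PBS replicate 3.

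Of 9 activin ligand and antagonist genes, 1 was called in muscle and none in kidney, and of 14 receptor and SMAD genes, 2 were lower in muscle and 1, Bmpr1b, in kidney. Over all genes 4.11% were higher and 2.32% lower in muscle, and 0.945% and 0.759% in kidney, so that these counts of 1 or 2 are not read as a change of either list. Inhba, the beta subunit of activin A, changed by 0.08 ± 0.11 in kidney and 0.07 ± 0.11 in muscle, and Inhbb by 0.11 and -0.05. The antagonist genes Fst and Fstl3 changed by -0.12 and -0.10 in kidney and by -0.03 and -0.01 in muscle. Differences of these 4 genes lay between -0.09 and 0.16, none called. Acvr2b, the receptor from which the trap is made, read 7.60 to 7.81 in trap muscle against 8.01 to 8.49 in PBS muscle, with no overlap and an effect of -0.53 ± 0.14 (adjusted p = 0.029). In kidney Acvr2b changed by -0.18 ± 0.14, and the difference of 0.35 ± 0.18 was not called (adjusted p = 0.35). Acvr1b fell by 0.88 ± 0.16 in muscle (adjusted p = 0.0048), and Acvr2a, with effects of -0.36 in kidney and 0.37 in muscle, had a called difference of -0.73 ± 0.18 (adjusted p = 0.040). Fstl1, a follistatin-like glycoprotein of mesenchymal cells, rose by 1.20 ± 0.22 in muscle and had a difference of -1.39 ± 0.30 (adjusted p = 0.025). Id1, a target of BMP signalling, changed by 0.21 in kidney and -0.11 in muscle, and none of 14 measured TGF-beta and SMAD2/3 target genes was called in either tissue.

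The atrophy ligase genes Fbxo32 and Trim63 did not pass the test in either tissue. Fbxo32 read 10.53, 9.26, 10.13 and 10.30 in trap muscle, against 13.50, 10.20, 10.94 and 11.62 in PBS muscle, an effect of -1.51 ± 0.52 (adjusted p = 0.096). Trim63 changed by -0.55 ± 0.42 in muscle, and the differences of 0.96 and 1.22 for Fbxo32 and Trim63 were not called. Of 14 genes of the atrophy and FoxO list, 3 fell in muscle (Fbxo31, -1.23 ± 0.20, Foxo1, -0.93 ± 0.22, and Foxo3, -0.78 ± 0.19), against 2.32% of all genes, and none was called in kidney. The muscle count was 1 without trap replicate 1, 3 or 4 or PBS replicate 1 or 3, and 5 without PBS replicate 2. Fbxo31, an F-box ubiquitin ligase subunit, had a called difference of 1.23 ± 0.28 (adjusted p = 0.027). None of 30 oxidative phosphorylation genes was called in either tissue. Alas2, the first enzyme of haem synthesis in red cell precursors, read 6.45 to 7.08 in trap muscle against 4.13 to 5.36 in PBS muscle, an effect of 1.99 ± 0.34 (adjusted p = 0.0035). In kidney Alas2 changed by 1.16 ± 0.34 (adjusted p = 0.10), at 5.21 to 6.84 with the trap against 4.46 to 5.48 with PBS, and the part of red cells in other changes was not tested.

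Wild-type mice, whose arrays were not in the fit that chose the genes, had few of the shared changes called. Of the 17 genes moved alike in mutants, 14 had the same sign in wild-type kidney and 13 in wild-type muscle. The same change was called for Vsig4 in wild-type kidney and for Vsig4, Adgre4 and Sap30 in wild-type muscle. In these mice the trap changed 76 genes upward and 85 downward in kidney (0.427% and 0.478% of genes) and 40 upward and 37 downward in muscle (0.225% and 0.208%). None of the 5 genes with opposite effects in mutants was called in the same direction in wild type. Ifrd2 went the other way in wild-type kidney, at 8.25 to 8.98 with the trap against 9.28 to 9.54 with PBS (-0.81 ± 0.13, adjusted p = 0.0010).

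The kidney minus muscle difference itself differed between mutants and wild type for 148 genes (0.832%). Among the named genes and those called in both tissues, the positive ones were Slc22a19 (3.56), Slc22a30 (3.40), Esm1 (2.44), Pik3r1 (2.05), Ifrd2 (1.55), Adgre4 (1.51) and Sap30 (1.21). On the negative side they were Col1a1 (-3.08), Cited4 (-2.65), Foxi1 (-2.49), Dbndd2 (-1.82) and Blnk (-1.26). These genes were chosen mainly by their values in the mutant arrays, which also enter this comparison. That choice favours a called difference between genotypes, so it is no separate support. For Vsig4 the difference between genotypes was 1.74 (adjusted p = 0.051). Foxi1 read 8.01 to 8.73 in wild-type kidney with the trap and 7.17 to 7.89 with PBS, so that its change of 0.75 had the other sign from that in mutants and was not called (adjusted p = 0.081).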

How the data were processed

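Kidney and muscle RNA was measured on Affymetrix mouse genome arrays. The authors deposited normalized log2 intensities, 1 value per probe set and array; neither how they were normalized nor the base of the log is given in the sources used here, and base 2 was taken from their range. For each of 17782 genes the brightest probe set on average across the 30 arrays was kept, out of 31563 probe sets with 1 gene; 825 with several genes and 2700 with none were left out. R 4.3.3 and limma 3.58.1 fitted the 4 mutant groups on 16 arrays. Mouse entered as a random effect, because each gave a kidney and a muscle (consensus correlation 0.0811), and p-values were Benjamini-Hochberg adjusted over all genes for each contrast. Wild-type values and genotype differences came from a fit on all 30 arrays. The trap and PBS mice that share a replicate number are different animals by the numbers in the titles, so the replicate numbers do not pair them. Their deviations correlated between -0.123 and 0.344. Those of kidney and muscle of the same mouse correlated between -0.09 and 0.306, a similar range. These correlations therefore cannot tell pairs from other mice.

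The members, gene lists and tests were chosen with earlier results of these data known. Named genes were, per pattern, up to 8 genes called in both tissues by the smaller change (filled to 3 by unadjusted p where fewer were called), the 5 largest called differences in each direction whose mice did not overlap, up to 3 members of each list with at least 3 called differences, and 13 genes named in any case. Other genes in the text are members of the lists, tissue markers, genes called in both tissues or genes near a threshold. Alternatives covered probe sets, normalization, weights, blocks, a fold minimum and each mouse left out; 3 covariates were chosen once their values were known. The fit was tested on simulated data. The labels give no batch, the number of arrays limits precision, and no pair of arrays in a group correlated above 0.9953.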

Additional observations from a re-analysis of the deposited data

Results flagged for a closer look

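Tests of the kidney minus muscle difference of the trap effect flagged 27 named genes. Many of them were named because this difference was called, so the count is no separate support. Over all genes 0.911% had a called positive difference and 1.93% a called negative one. A positive value means that the trap effect in kidney lay above that in muscle, through a rise in kidney, a fall in muscle or both. Positive values were 4.24 for Slc22a19, 4.06 for Dnase1, 3.29 for Havcr1, 3.16 for Mss51, 2.81 for Slc22a30, 1.85 for Pik3r1, 1.77 for Cebpd, 1.71 for Esm1, 1.36 for Glul, 1.19 for Aqp1 and 0.92 for Ifrd2. Negative values were -2.58 for AW551984, -2.44 for Nrep, -2.35 for Col1a1, -2.29 for Npy6r, -2.24 for Cited4, -1.63 for Col6a2, -1.38 for Dbndd2, -1.37 for Celsr2, -1.28 for Foxi1, -1.27 for Blnk, -1.25 for Frk, -1.15 for Atp6v0d2, -1.03 for Sparc, -0.94 for Krt7, -0.88 for Il18r1 and -0.75 for Clu.

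Among the named genes and the 22 genes called in both tissues, the kidney minus muscle difference was itself different in mutants and wild type for 12. Mutant minus wild type was 3.56 for Slc22a19, 3.40 for Slc22a30, 2.44 for Esm1, 2.05 for Pik3r1, 1.55 for Ifrd2, 1.51 for Adgre4 and 1.21 for Sap30. It was -3.08 for Col1a1, -2.65 for Cited4, -2.49 for Foxi1, -1.82 for Dbndd2 and -1.26 for Blnk. The mutant values by which these genes were mainly chosen also enter this comparison, so it is no separate support for them.

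In 9 of 196 groups of 4 arrays, 1 array lay far from the other 3, where chance flags about 1 in 20. In trap kidneys these arrays read 6.64 for Vsig4, 7.89 for Slc22a30, 3.67 for AW551984, 10.21 for Pik3r1 and 8.75 for Fst. In trap muscle they read 5.35 for Cdkl1, 3.99 for Slc22a19 and 4.76 for Atp6v0d2. In PBS kidneys 1 array read 8.70 for Col1a1.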

How the results depend on the processing

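Counts are given in the order kidney, muscle, difference, alike and opposite, and were 303, 1142, 505, 17 and 5 in the fit reported. With only genes above the median level in both tissues they were 37, 1028, 395, 5 and 0. Quantile normalization and centring each gave 8 opposite genes. Array weights gave 573, 624, 493, 20 and 8, and all 30 arrays in 1 fit gave 566, 1806, 936, 44 and 19. Each tissue fitted apart gave 224, 263, 262, 2 and 0. A fold minimum of 2 gave 92, 193, 221, 1 and 0. The terms added after the data were seen gave 2, 53, 0, 0 and 0 (18S), 302, 70, 107, 1 and 0 (beta-actin, with more calls in kidney than in muscle) and 103, 410, 87, 3 and 0 (adipocyte genes); the cause was not tested. Leaving out 1 mouse gave 108 to 566, 498 to 2134, 192 to 631, 3 to 69 and 0 to 16.

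A replicate block of numbers 1 to 4 gave 274, 850, 220, 16 and 5, and no animal block gave 308, 1110, 364, 17 and 6. Without the animal block 81 genes differed between genotypes, against 148 with it. Of the genes called in both tissues of mutants, 4 tissue effects were called in the same direction in wild type, and 1 among genes above the median level. Over 71 called results of named genes and of genes called in both tissues, with 1453 alternative values, 461 lost the call and 0 changed sign. Over 28 uncalled results and 572 values, 43 changed sign, in 15 results, and 2 were newly called, both for Plin4.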
